A study of Mus musculus with 6 samples.

Results

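The genes described here encode the SR proteins and the heterogeneous nuclear ribonucleoproteins (hnRNPs), the main families of RNA-binding proteins that steer the choice of splice sites. They were taken by name: every gene annotated as protein coding in the deposited expression table whose symbol begins with Srsf or Hnrnp. The rule gave 33 of the 41079 genes listed, 12 named Srsf and 21 named Hnrnp, and used no measured value. The RNA came from D10 T cells, a cloned mouse helper T cell line of the CD4 lineage, and was selected for poly(A)+ molecules and sequenced from cells kept at 37°C (non-acclimated cells, 3 replicates) or after 24 h at 26°C (cold-acclimated cells, 3 replicates). Both conditions were cultures of the same cloned line kept for 24 h, so that temperature was the only labelled difference. According to the labels RNA was extracted in an old and a new batch, and they do not assign the libraries to these.

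SR proteins carry RNA recognition motifs and a tail rich in arginine and serine, and as a rule they bind exons and favour their inclusion. Their tails are phosphorylated in the cytoplasm by the SRPK kinases and in the nucleus by the CLK kinases, which sets where they reside and what they bind. hnRNPs coat nascent RNA and often, though not always, oppose exon inclusion. They also act in RNA export, stability and translation. Many genes of both families carry exons whose inclusion sends the mRNA to nonsense-mediated decay, which lets the proteins limit their own level. The values analysed are sums over all mRNAs of a gene and do not separate such isoforms.

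Levels are given as TPM, which are reads divided by gene length with every library scaled to the same total. The reads recovered from the TPM numbered 16899628, 21462543 and 31290854 in non-acclimated replicates 1 to 3 and 19605883, 20579363 and 25169484 in the cold-acclimated replicates. The members held between 1.02% and 1.77% of the reads of a library. A limma fit of log2(TPM + 1), which did not pair the libraries by replicate number, covered the 12227 genes that averaged 1 TPM or more. A gene was called changed where its log2 fold change reached 1 in size and its Benjamini-Hochberg adjusted p was below 0.05. Log2 fold changes are differences of log2(TPM + 1), cold-acclimated minus non-acclimated, and those of low genes are understated by the added 1. Over all tested genes the log2 fold change had a median of -0.34, and of 0.03 after median of ratios scaling, which sets the typical gene to the same level in every library. The study's methods name that scaling for the read counts, and the members and named list genes whose call differs with it are given under both.

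Replicate 3 stood apart from the other replicates in both conditions. Cd4, the co-receptor that names the cell type, was at 1.09, 0.0351 and 310 TPM in non-acclimated replicates 1, 2 and 3, with 1.30, 0.352 and 328 TPM after cold acclimation, whereas Cd3e, a chain of the T cell receptor complex, lay between 476 and 874 TPM in all 6 libraries. The label CD4+ was therefore borne out by its marker in replicate 3 alone. The summed level of 14 T cell markers was 5653 to 6963 TPM in non-acclimated and 5064 to 6068 TPM in cold-acclimated cells. Of 10 B cell markers, 3 were at 0 in every library and their sum stayed between 1.02 and 3.62 TPM. The sum of 8 macrophage markers ranged from 2.46 to 15.9 TPM in non-acclimated and from 2.71 to 21.2 TPM in cold-acclimated cells, highest in replicate 3. The sum of 7 erythroid markers ranged from 80.9 to 487 and from 61.4 to 475 TPM and consisted almost wholly of Hba-a1, an alpha globin, with the beta globins Hbb-bs and Hbb-bt at 0. For the called members, and for most called genes of the other lists, the value without both libraries of replicate 3 is given as well.

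Of the 33 members, 30 were expressed above the minimum and tested, 10 SR protein and 20 hnRNP genes. Srsf12 and Srsf19 were listed at 0 in all libraries, where a count of 0 allows up to 3 reads per library. Hnrnpa1l2-ps2 was at 0.143 TPM in non-acclimated replicate 3 and at 0 elsewhere. Each tested member was covered by 575 to 68095 reads in a library, so that counting error was small beside the spread between replicates.

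Among the SR protein genes, Srsf5 rose and Srsf1 fell in cold-acclimated cells. Among the hnRNP genes, Hnrnpdl rose and Hnrnpa3, Hnrnpll and Hnrnpul2 fell. The count called higher was thus 1 of 10 and 1 of 20 against 2.63% of all tested genes, and the count called lower was 1 of 10 and 3 of 20 against 16% of all tested genes. After median of ratios scaling, 2 SR protein genes (Srsf5, Srsf6) and 2 hnRNP genes (Hnrnpdl, Hnrnpd) were higher against a background of 6.87%, and 1 SR protein gene (Srsf1) and 0 hnRNP genes were lower against 8.6%. At an unadjusted p under 0.05, 3 hnRNP genes were lower with this scaling in the limma fit, and the limma voom fit on recovered reads also called 0 lower. Srsf5, Srsf1 and Hnrnpdl kept their calls under both scalings, whereas the calls of Hnrnpa3, Hnrnpll and Hnrnpul2 were lost with the second. With a replicate block and median of ratios scaling together, these 3 genes had limma adjusted p-values of 0.0236, 0.0255 and 0.0313. Their log2 fold changes of -0.95, -0.92 and -0.91 then fell short of the fold threshold alone.

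**Figure D1:**
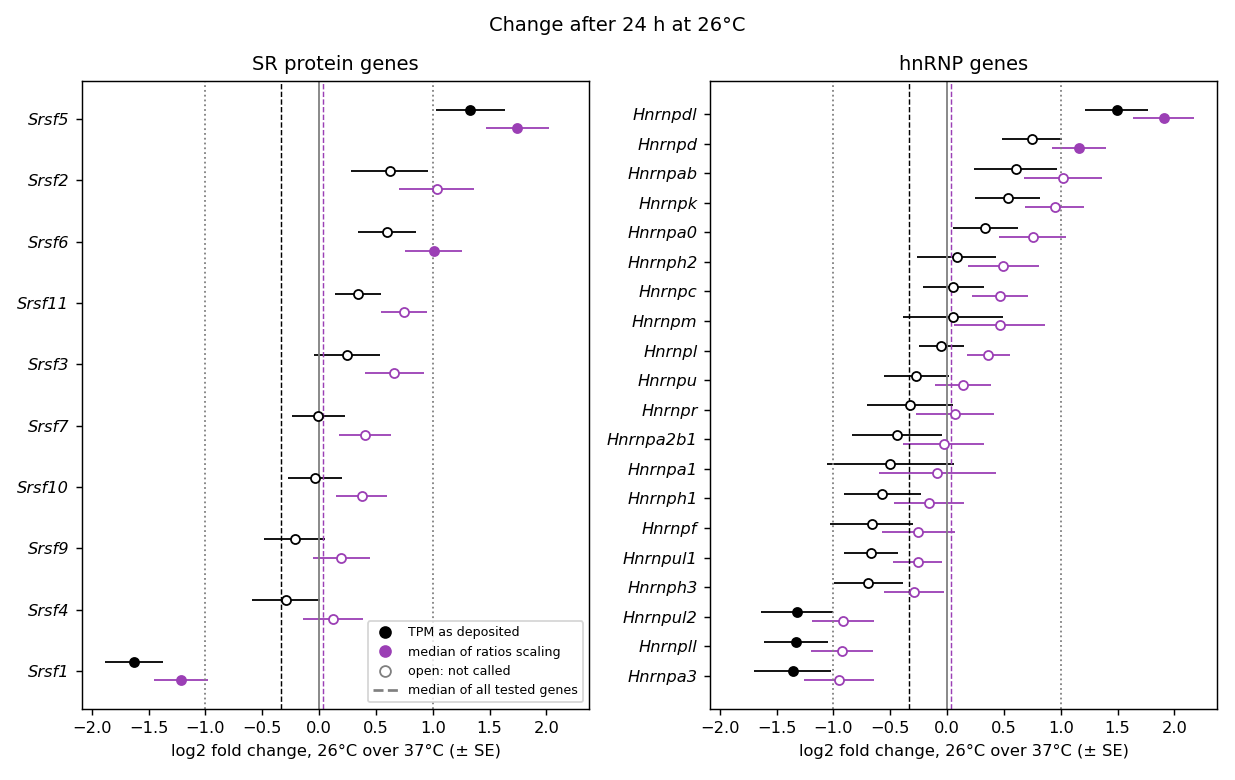
Log2 fold change of each tested SR protein and hnRNP gene, cold-acclimated minus non-acclimated, with TPM as deposited and after median of ratios scaling; bars are standard errors of the limma fit and vertical lines mark the threshold of 1 in size and the median of all genes. Hnrnpdl (1.49) and Srsf5 (1.33) lie at the upper end and Srsf1 (-1.63) at the lower end.

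Srsf5, which encodes an SR protein also known as SRp40, was at 298, 287 and 386 TPM in non-acclimated replicates 1 to 3 and at 554, 868 and 1098 TPM in cold-acclimated replicates 1 to 3. Every cold-acclimated library was above every non-acclimated one. The mean rose from 324 ± 54.1 to 840.0 ± 273 TPM (SD, n = 3), a log2 fold change of 1.33 (SE 0.30, limma adjusted p = 0.0234), and 1.74 (SE 0.28, limma adjusted p = 0.0129) after median of ratios scaling. Without replicate 3 the log2 fold change was 1.24 (limma adjusted p = 0.0230). The gene lost its call when non-acclimated replicate 1 (adjusted p = 0.0755), non-acclimated replicate 2 (0.0929) or cold-acclimated replicate 2 (0.0845) was left out of the limma fit. Its log2 fold change then stayed between 1.25 and 1.28.

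Srsf1, the founding SR protein, which promotes exon inclusion and also acts in export and translation, moved the other way. Its level was 174, 252 and 292 TPM in non-acclimated cells and 67.4, 81.0 and 77.5 TPM in cold-acclimated cells, again without overlap. The log2 fold change was -1.63 (SE 0.26, limma adjusted p = 0.00931), the smallest adjusted p of any member, and -1.21 (SE 0.24, limma adjusted p = 0.0204) after median of ratios scaling. It was -1.49 without replicate 3 (limma adjusted p = 0.0109). The call was lost in the fit without non-acclimated replicate 2 (limma log2 fold change -1.57, adjusted p = 0.0513).

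Hnrnpdl, a relative of hnRNP D that binds AU-rich elements, was the hnRNP gene with the largest increase. Its level was 72.8, 78.8 and 133 TPM in non-acclimated cells and 236, 276 and 268 TPM in cold-acclimated cells. The conditions did not overlap. The log2 fold change was 1.49 (SE 0.28, limma adjusted p = 0.0142), and 1.90 (SE 0.27, limma adjusted p = 0.0110) after median of ratios scaling. Without replicate 3 it was 1.74 (limma adjusted p = 0.00455). Leaving out non-acclimated replicate 1 or 2 or cold-acclimated replicate 1 or 2 gave limma adjusted p-values of 0.0551, 0.0664, 0.0539 and 0.0585.

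The sequences around the starts of these 3 genes are shown because they are the members called under both scalings. Each window runs from 250 bases before to 50 bases after the RefSeq start, was taken from RefSeq promoter windows of GRCm38.p6, and was placed in GRCm39 by an exact match. Capitals mark the matches to the motifs searched on both strands: the GC box GGGCGG, the CCAAT box CCAAT, the E-box CACGTG, the TATA box TATAAA, the ETS site CCGGAAG and the cyclic AMP response element TGACGTCA. Srsf5 lies at chr12:80992308-80997277 on the plus strand, and its window at chr12:80992023-80992322 had a GC content of 56.0%, with 3 GC boxes and 2 ETS sites, the last of which overlaps a GC box. Srsf1 lies at chr11:87937325-87944583 on the plus strand, and its window at chr11:87937949-87938248 had 58.3% GC, with 1 GC box and 1 CCAAT box. Hnrnpdl lies at chr5:100181436-100187769 on the minus strand, and its window at chr5:100187032-100187331 had 72.7% GC and 3 GC boxes. The RefSeq starts lay 35, 874 and 688 bases from the gene boundaries in the deposited table.
Srsf5: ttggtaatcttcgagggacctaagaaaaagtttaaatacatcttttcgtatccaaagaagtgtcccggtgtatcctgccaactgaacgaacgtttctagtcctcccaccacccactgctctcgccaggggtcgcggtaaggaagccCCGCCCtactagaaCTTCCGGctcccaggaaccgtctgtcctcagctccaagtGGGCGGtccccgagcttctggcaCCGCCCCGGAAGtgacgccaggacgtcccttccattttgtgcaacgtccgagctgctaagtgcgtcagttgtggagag
Srsf1: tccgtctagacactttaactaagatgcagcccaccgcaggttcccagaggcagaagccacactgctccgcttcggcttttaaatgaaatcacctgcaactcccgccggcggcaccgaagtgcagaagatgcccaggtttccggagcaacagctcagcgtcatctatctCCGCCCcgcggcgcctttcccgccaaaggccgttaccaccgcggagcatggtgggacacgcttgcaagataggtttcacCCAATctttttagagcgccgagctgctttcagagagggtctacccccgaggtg
Hnrnpdl: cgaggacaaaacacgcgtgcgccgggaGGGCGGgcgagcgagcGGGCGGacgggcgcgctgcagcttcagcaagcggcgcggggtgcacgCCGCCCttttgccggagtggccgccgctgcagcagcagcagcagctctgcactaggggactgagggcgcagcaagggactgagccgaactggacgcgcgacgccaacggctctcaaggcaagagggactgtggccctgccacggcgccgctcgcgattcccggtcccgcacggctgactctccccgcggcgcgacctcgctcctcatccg

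RefSeq windows were found for 28 of the 30 tested members, 40 windows in all, and not for Hnrnpll and Hnrnpul2. A GC box was present in 82.5% of these windows against 35.7% of all 32851 RefSeq windows. The CCAAT box was in 52.5% against 37.4%, the ETS site in 25% against 8.86%, the E-box in 12.5% against 7.15% and the TATA box in 10% against 13.6%. The cyclic AMP response element was in 0 of the 40 windows and in 1.79% of all windows. A gene can have several windows, and a match of letters is a description of the sequence alone.

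Srsf6, a close relative of Srsf5, passed the thresholds only after median of ratios scaling. It was at 145, 218 and 245 TPM in non-acclimated cells and at 288, 329 and 284 TPM in cold-acclimated cells, without overlap. Its log2 fold change was 0.60 (SE 0.26, limma adjusted p = 0.133) as deposited and 1.01 (SE 0.25, limma adjusted p = 0.0351) with the scaling. Without replicate 3 it was 0.79 (limma adjusted p = 0.0725) as deposited. Srsf11 had the smallest standard error of the SR protein genes (0.20 on the log2 scale), with 56.1, 55.9 and 49.7 TPM in non-acclimated and 66.0, 72.6 and 67.1 TPM in cold-acclimated cells, also without overlap (log2 fold change 0.34, limma adjusted p = 0.256). In all, 3 SR protein genes were higher without overlap between conditions against 9.69% of all tested genes, and 1 was lower without overlap against 31.4%.

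Srsf2 and Srsf3 were the most abundant SR protein genes after Srsf5. Srsf2, a mainly nuclear protein used as a marker of nuclear speckles, was at 197, 356 and 483 TPM in non-acclimated and 533, 484 and 480.2 TPM in cold-acclimated cells. Its non-acclimated values covered a wide range and the highest of them lay inside the cold-acclimated range (log2 fold change 0.62, limma adjusted p = 0.223). With a replicate block and median of ratios scaling together, Srsf2 was called higher (log2 fold change 1.03, limma adjusted p = 0.0460). Within replicate numbers 1, 2 and 3 its differences as deposited were 1.43, 0.44 and -0.01 on the log2 scale. Without non-acclimated replicate 1 its log2 fold change as deposited was 0.26 (limma adjusted p = 0.513). Srsf3, the smallest SR protein and an adaptor for mRNA export, was at 260.0, 392 and 452 TPM and at 377, 372 and 551 TPM, with overlapping conditions (log2 fold change 0.25, limma adjusted p = 0.579). Srsf7, its closest relative, had a log2 fold change of -0.01. Srsf4 (-0.29), Srsf9 (-0.22) and Srsf10 (-0.04) also gave small differences that did not pass the test, and these 4 turned positive, to between 0.12 and 0.41, after median of ratios scaling.

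**Figure D2:**
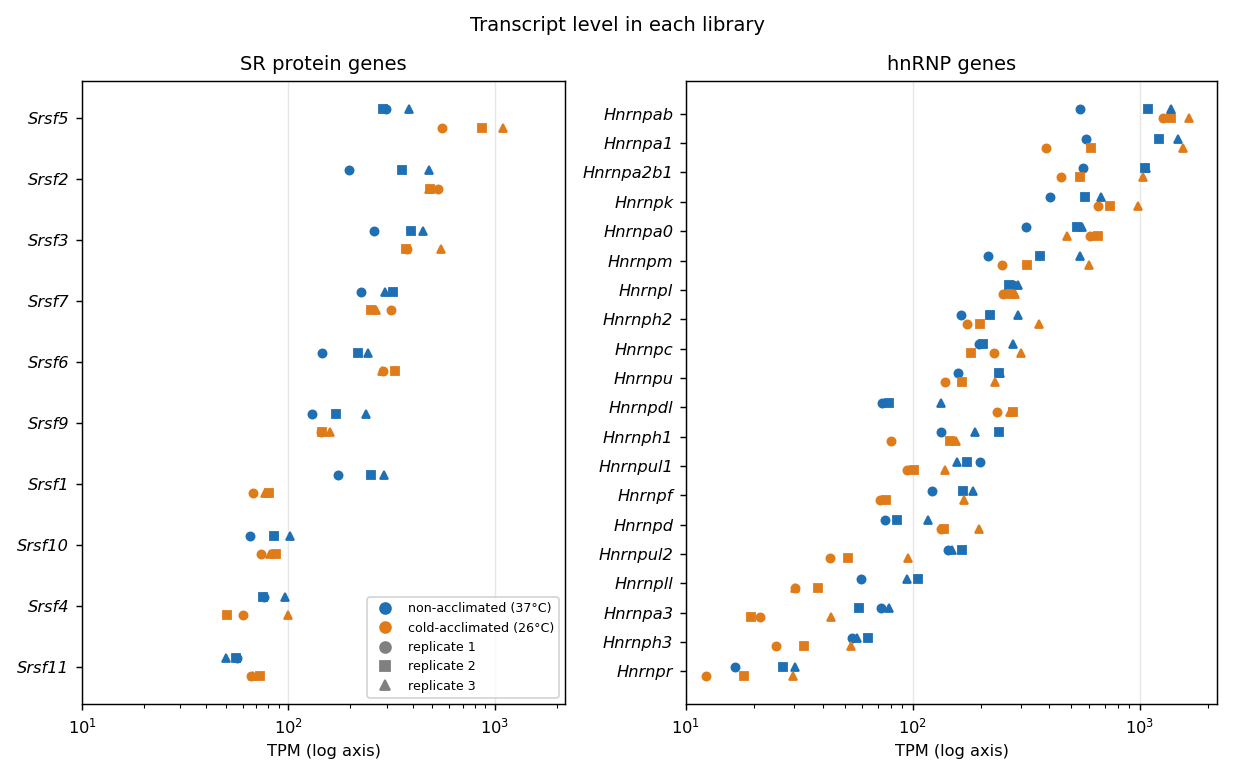
Level of each tested gene in TPM (log axis) in the 3 non-acclimated and 3 cold-acclimated libraries, for SR protein genes and hnRNP genes. Srsf1 and Srsf5 separate by condition in opposite directions, while Hnrnpa1, at 582, 1212 and 1473 against 387, 611 and 1549 TPM, overlaps widely.

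The shares of the summed SR protein TPM, which do not depend on the scaling of a library, changed order between conditions. Srsf5 held 18.3%, 12.98% and 14.6% of the family in non-acclimated cells and 22.4%, 31.6% and 34.7% in cold-acclimated cells, and moved from rank 3 to rank 1 by mean share. Srsf1 held 10.7%, 11.4% and 11.1%, and then 2.72%, 2.95% and 2.45%, moving from rank 5 to rank 8. Srsf4, Srsf9 and Srsf10 also held lower shares without overlap, and the other 5 tested genes overlapped. The family sum was 1628, 2213 and 2638 TPM in non-acclimated and 2478, 2743 and 3163 TPM in cold-acclimated cells, with means of 2160 ± 507 and 2795 ± 345 TPM (SD, n = 3). The sum was higher at 26°C within each replicate number, but the conditions overlapped. Shares in a family add up to a fixed total, so that a gain by Srsf5 lowers the other shares.

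**Figure D3:**
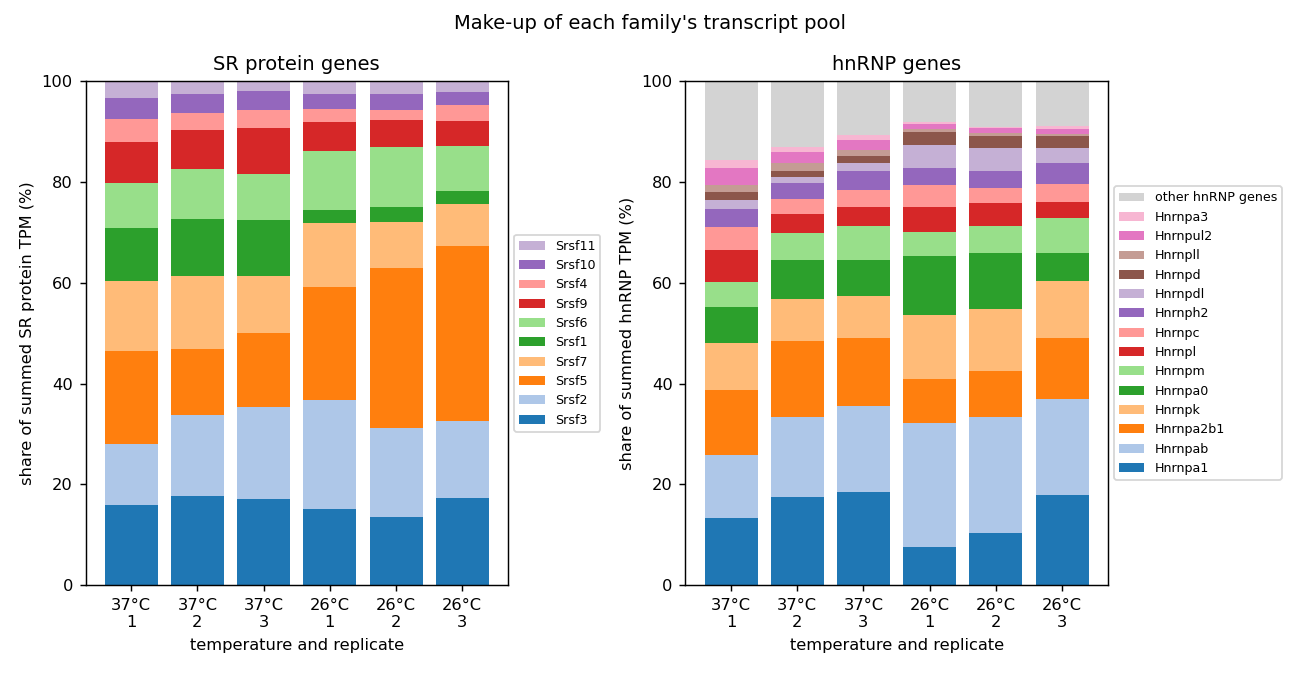
Share of each gene in the summed TPM of its family, in percent, for each of the 6 libraries; stacked bars add up to the whole family. The part of Srsf5 is larger and that of Srsf1 smaller in all 3 cold-acclimated libraries.

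Ratios between related genes within a library give the same comparison without any scaling. The ratio of Srsf5 to Srsf1 was 1.72, 1.14 and 1.32 in non-acclimated and 8.22, 10.7 and 14.2 in cold-acclimated cells, a mean difference of 2.97 on the log2 scale (SD of the 3 differences by replicate number 0.62). Srsf1 to Srsf9, its closest relative, went from 1.34, 1.47 and 1.23 to 0.469, 0.554 and 0.485, a mean log2 difference of -1.42 (SD 0.08). Srsf5 to Srsf4 went from 3.89, 3.80 and 4.02 to 9.15, 17.3 and 11.01. These 3 ratios did not overlap between conditions, whereas Srsf3 to Srsf7 and Srsf5 to Srsf6 did. All 13 pairs were picked with the levels known, and the smallest p that an exact permutation test of 3 against 3 libraries can reach is 0.1, so that the ratios are given as descriptions.

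**Figure D4:**
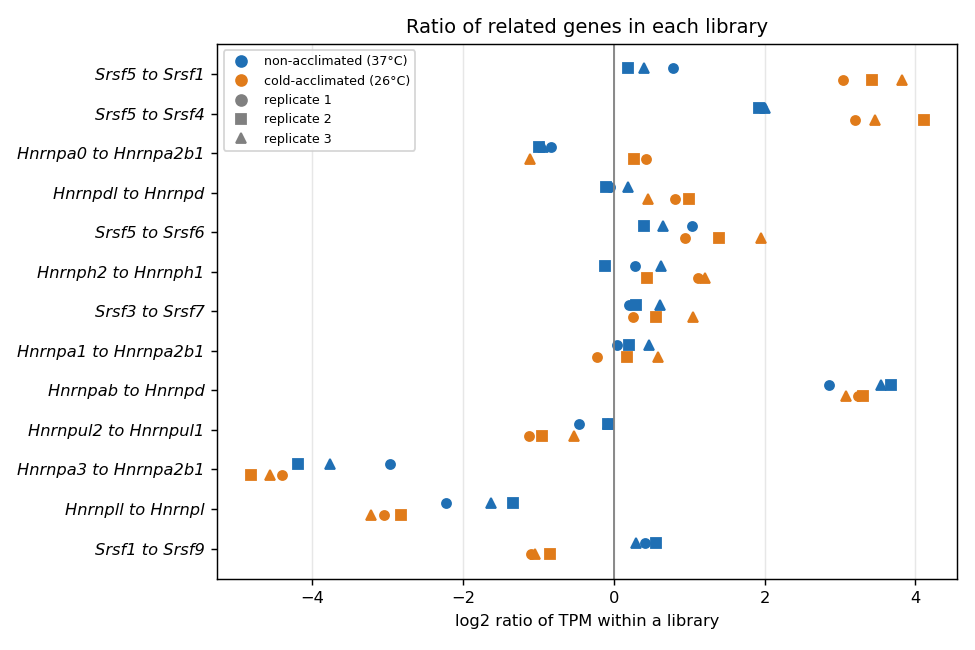
Log2 ratio of TPM between related genes within each library, for 13 pairs, non-acclimated and cold-acclimated. Srsf5 to Srsf1 shifts by 2.97 and Srsf1 to Srsf9 by -1.42 on average, without overlap of the conditions.

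Hnrnpab, Hnrnpa1 and Hnrnpa2b1 were the most abundant hnRNP genes. Hnrnpab, which encodes a protein related to hnRNP D, was at 545, 1089.5 and 1367 TPM in non-acclimated and 1264, 1368 and 1650.0 TPM in cold-acclimated cells. The lowest cold-acclimated value lay below the highest non-acclimated one (log2 fold change 0.60, limma adjusted p = 0.268). Within replicate numbers 1, 2 and 3 Hnrnpab was higher at 26°C by 1.21, 0.33 and 0.27 on the log2 scale. With a replicate block and median of ratios scaling together it was called higher (log2 fold change 1.02, limma adjusted p = 0.0288). Its share of the hnRNP sum rose without overlap, from 12.5%, 15.8% and 17.1% to 24.6%, 23.0% and 19.1%. Hnrnpa1, a shuttling splicing repressor, was at 582, 1212 and 1473 TPM and at 387, 611 and 1549 TPM, and differed more between the libraries of a condition than between conditions (log2 fold change -0.50, limma adjusted p = 0.556). Hnrnpa2b1, which binds the same kind of sites, was at 564, 1052 and 1068 TPM and at 450.1, 543 and 1032 TPM (log2 fold change -0.44, limma adjusted p = 0.459).

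Hnrnpd, also called AUF1 and known for the decay of mRNAs with AU-rich elements, was at 75.3, 85.0 and 117 TPM in non-acclimated and at 134, 138 and 195 TPM in cold-acclimated cells. The conditions did not overlap. Its log2 fold change of 0.75 (SE 0.27, limma adjusted p = 0.0827) did not pass as deposited, and 1.16 (SE 0.24, limma adjusted p = 0.0216) passed after median of ratios scaling. Without replicate 3 its log2 fold change was 0.76 (limma adjusted p = 0.0383), short of the fold threshold. Hnrnpd and Hnrnpdl are neighbours on chromosome 5, 54.5 kb apart. Hnrnpdl to Hnrnpd, as a ratio, went from 0.967, 0.927 and 1.14 to 1.76, 2.00 and 1.38 without overlap, so that Hnrnpdl exceeded its relative in each cold-acclimated library.

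Hnrnpll, known in T cells for exon skipping in the mRNA of the phosphatase CD45, was at 59.0, 106 and 94.2 TPM in non-acclimated and at 30.3, 38.3 and 30.2 TPM in cold-acclimated cells. The conditions did not overlap. It fell by 1.33 on the log2 scale (SE 0.28, limma adjusted p = 0.0195), with -0.92 (limma adjusted p = 0.0539) after median of ratios scaling and -1.19 (limma adjusted p = 0.0392) without replicate 3. The call was lost without non-acclimated replicate 2, cold-acclimated replicate 1 or cold-acclimated replicate 2 (limma adjusted p = 0.0837, 0.0777 and 0.0554). Its relative Hnrnpl, a binder of CA repeats, stayed between 250 and 291 TPM in all libraries (log2 fold change -0.05, limma adjusted p = 0.883). The ratio of Hnrnpll to Hnrnpl was 0.214, 0.397 and 0.323 in non-acclimated and 0.121, 0.141 and 0.107 in cold-acclimated cells, without overlap.

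Hnrnpul2, of the hnRNP U group of chromatin-associated proteins, was at 143, 164 and 149 TPM and at 43.1, 52.0 and 95.6 TPM, without overlap. It fell by 1.32 on the log2 scale (SE 0.32, limma adjusted p = 0.0272), and the value was -0.91 (limma adjusted p = 0.0566) after median of ratios scaling. Without replicate 3 it was -1.67 (limma adjusted p = 0.00531). The call was kept in 1 of the 6 fits that leave out a single library, the one without cold-acclimated replicate 3, and in the other 5 the limma adjusted p ranged up to 0.0986. Ttc9c overlaps the start of Hnrnpul2 on the opposite strand and was at 45.7, 39.2 and 49.95 TPM and at 5.70, 3.64 and 10.2 TPM. The strand setting of the counting is not stated in the sources used here, and the part of Ttc9c in the fall of Hnrnpul2 was not tested. The related genes Hnrnpul1 and Hnrnpu had log2 fold changes of -0.67 (limma adjusted p = 0.0810) and -0.27 (limma adjusted p = 0.531).

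Hnrnpa3, a relative of Hnrnpa2b1, was at 72.1, 57.8 and 78.1 TPM in non-acclimated and at 21.3, 19.3 and 43.7 TPM in cold-acclimated cells, without overlap. It fell by 1.36 on the log2 scale (SE 0.34, limma adjusted p = 0.0314), and the value was -0.95 (limma adjusted p = 0.0686) after median of ratios scaling. Without replicate 3 it was -1.62 (limma adjusted p = 0.00610). Of the 6 fits that leave out a single library, only the limma fit without cold-acclimated replicate 3 kept the call, and the others gave adjusted p-values of up to 0.113. Pseudogenes close in sequence to their parents can share reads with Hnrnpa1 and Hnrnpa3, and the treatment of reads with several positions is not stated in the sources used here. Gm6793, a pseudogene of Hnrnpa3, was at 11.4, 46.6 and 30.0 TPM and at 10.6, 21.0 and 21.9 TPM. With its listed pseudogenes, Hnrnpa3 was at 98.9 ± 13.01 and 46.6 ± 17.1 TPM (SD, n = 3), a log2 fold change of -1.12. Gm10052, a pseudogene of Hnrnpa1, was at 47.0, 129 and 162 TPM and at 25.5, 55.9 and 167 TPM. Values of both parents are uncertain to that extent.

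In all, 2 hnRNP genes were higher (Hnrnpdl, Hnrnpd) and 5 lower (Hnrnpa3, Hnrnpll, Hnrnpul2, Hnrnpul1, Hnrnph3) without overlap, against 9.69% and 31.4% of all tested genes. Hnrnpk, a binder of C-rich stretches, was at 401, 575 and 677 TPM and at 653, 739 and 982 TPM (log2 fold change 0.53, limma adjusted p = 0.214). Its share of the hnRNP sum did not overlap, at 8.31% to 9.21% and 11.4% to 12.7%. The G-tract binders Hnrnpf (-0.66), Hnrnph1 (-0.57), Hnrnph3 (-0.69) and Hnrnph2 (0.08) did not pass. Hnrnpa0 (0.34), Hnrnpm (0.05), Hnrnpc (0.05) and Hnrnpr (-0.33) did not pass either. By mean share, Hnrnpab took rank 1 from Hnrnpa1, which moved to rank 3, and Hnrnpk moved from rank 4 to rank 2. Shares of 4 hnRNP genes were higher and of 9 lower without overlap. The hnRNP shares also add up to a fixed total, so that gains by Hnrnpab and Hnrnpk lower the other shares. The mean share went from 15.1% to 22.2% for Hnrnpab and from 8.67% to 12.2% for Hnrnpk. Such shares have no counterpart over all tested genes to set beside these counts. The family sum was 4357, 6912 and 7977 TPM in non-acclimated and 5143, 5945 and 8638 TPM in cold-acclimated cells, and these ranges overlapped almost entirely.

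As groups, the median log2 fold change was 0.12 over the 10 SR protein genes and -0.30 over the 20 hnRNP genes, beside -0.34 over all tested genes. After median of ratios scaling the medians were 0.53, 0.10 and 0.03. The log2 fold change was positive for 5 of 10 SR protein genes and 8 of 20 hnRNP genes, beside 33.5% of all genes, and for 9 and 11, beside 51.6%, after the scaling. Within replicate numbers 1, 2 and 3, the SR protein median exceeded that of all genes by 0.68, 0.42 and 0.26, and the hnRNP median differed from it by 0.06, -0.10 and 0.19. The SDs of log2 fold changes were 0.77, 0.74 and 0.88 for SR protein genes, hnRNP genes and all tested genes. These medians and SDs, and the percentages of all tested genes set beside the members, were not matched for level. Every tested member averaged 22.2 TPM or more, whereas tested genes start at 1 TPM.

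A list of kinases, import receptors and arginine methyltransferases gave 2 genes called lower and 0 called higher of 14 tested, beside 16% and 2.63% of all tested genes. Srpk1, the main cytoplasmic SR protein kinase, was at 84.9, 83.6 and 125 TPM and at 30.6, 32.4 and 50.9 TPM, without overlap, and fell by 1.35 on the log2 scale (SE 0.29, limma adjusted p = 0.0201). Srpk2, its relative, was at 21.3, 18.4 and 15.6 TPM and at 6.41, 8.67 and 10.6 TPM, and fell by 1.04 (SE 0.27, limma adjusted p = 0.0358). With median of ratios scaling the values were -0.95 (limma adjusted p = 0.0442, short of the fold threshold) and -0.66 (limma adjusted p = 0.113). Neither was called, while Dyrk1a, a related kinase, was called higher (log2 fold change 1.15). Both calls were also lost without non-acclimated replicate 1 or 2 or cold-acclimated replicate 1 or 2 (limma adjusted p of up to 0.0815 for Srpk1 and 0.126 for Srpk2). Without replicate 3 the log2 fold changes were -1.39 for Srpk1 (limma adjusted p = 0.00669) and -1.30 for Srpk2 (limma adjusted p = 0.0160). The nuclear kinases Clk1 and Clk4 were at 48.9, 50.4 and 47.9 TPM against 29.4, 39.5 and 42.6 TPM and at 23.7, 23.0 and 26.2 TPM against 31.1, 30.4 and 33.7 TPM. Their log2 fold changes of -0.41 (limma adjusted p = 0.235) and 0.37 (limma adjusted p = 0.239) did not pass.

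Of 33 tested SR-related splicing factors, which carry arginine and serine-rich stretches or work with SR proteins, 0 were called higher and 3 lower, beside 2.63% and 16% of all tested genes, with a median log2 fold change of 0.24. Srek1ip1, which binds the SR-related protein SREK1, was at 29.6, 29.0 and 23.6 TPM and at 4.0003, 2.37 and 6.23 TPM (log2 fold change -2.51, SE 0.33, limma adjusted p = 0.00735). Zranb2, a zinc finger splicing factor, was at 81.1, 108 and 95.7 TPM and at 27.0, 30.3 and 33.9 TPM (log2 fold change -1.61, SE 0.22, limma adjusted p = 0.00749). Both kept their calls in every fit that left out a library, and without replicate 3 their log2 fold changes were -2.88 (limma adjusted p = 0.00369) and -1.68 (limma adjusted p = 0.00620). Rsrp1, the other gene called lower, was at 412, 349 and 382 TPM and at 135, 193 and 114 TPM (log2 fold change -1.40, limma adjusted p = 0.0133), and was not called after median of ratios scaling (log2 fold change -0.99). With that scaling 6 genes of this list were higher and 2 lower, beside 6.87% and 8.6% of all tested genes. Tra2b, an SR-like activator of exon inclusion, was at 138, 189 and 229 TPM and at 183, 152 and 368 TPM and did not pass (log2 fold change 0.26, limma adjusted p = 0.659).

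A further list held hnRNP proteins with other gene names and other RNA-binding proteins, such as those of Celf2, Mbnl1 and Msi2. Of its 29 tested genes, 1 was called higher and 4 lower, beside 2.63% and 16% of all tested genes. The median log2 fold change of the list was -0.18. Ptbp2, the neuronal relative of the polypyrimidine tract-binding protein, was at 11.4, 10.2 and 9.12 TPM and at 27.0, 36.6 and 25.0 TPM (log2 fold change 1.43, SE 0.25, limma adjusted p = 0.0119). Celf2, a regulator of splicing in T cells, was at 32.7, 28.004 and 25.7 TPM and at 7.55, 8.17 and 14.5 TPM (log2 fold change -1.47, SE 0.30, limma adjusted p = 0.0177). Fubp3, Nono and Tia1 were the other genes called lower. After median of ratios scaling the list had 4 genes called higher and 2 lower, beside 6.87% and 8.6% of all tested genes. With a replicate block 2 were called higher and 6 lower, beside 458 and 2679 of all 12227 tested genes. Without replicate 3, 1 was called higher and 7 lower, beside 653 and 3088 of the 12227. Leaving out a single library moved the number called in the list to between 0 and 8. It was 0 without non-acclimated replicate 2, where 59 of all tested genes were called higher and 345 lower. It was 8 without cold-acclimated replicate 3, where 459 of all tested genes were called higher and 2725 lower. Ptbp2 lost its call without non-acclimated replicate 2 or cold-acclimated replicate 1 (limma adjusted p = 0.0587 and 0.0506), and Celf2 lost it without replicate 1 or 2 of either condition (limma adjusted p of up to 0.0722). Without replicate 3, Ptbp2 was at 1.47 (limma adjusted p = 0.0105) and Celf2 at -1.82 (limma adjusted p = 0.00499) as log2 fold changes.

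Among 21 nonsense-mediated decay factors, limma called 0, with 6 higher and 2 lower at an unadjusted p under 0.05, and 6 were called higher after median of ratios scaling and with limma voom. Over all tested genes, 2.63% were called higher and 16% lower, and 6.87% and 8.6% after the scaling. Without replicate 3, 2 decay factors were called higher and 2 lower, beside 653 and 3088 of all 12227 tested genes. Etf1, the translation termination factor, was at 195, 241 and 257 TPM and at 447, 454 and 427 TPM, without overlap (log2 fold change 0.94, limma adjusted p = 0.0227), short of the fold threshold. It was called higher after median of ratios scaling (1.36, limma adjusted p = 0.0124) and without replicate 3 (1.05, limma adjusted p = 0.0192). Smg5, which acts on the helicase UPF1, was at 40.7, 66.5 and 85.4 TPM and at 104, 127 and 131 TPM (log2 fold change 0.96, limma adjusted p = 0.0617). It too was called higher after median of ratios scaling (1.37, limma adjusted p = 0.0226) and without replicate 3 (1.13, limma adjusted p = 0.0341). Of 44 genes in a list of spliceosomal snRNP proteins and other spliceosome factors, 1 was called lower and 0 higher, beside 16% and 2.63% of all tested genes. Without replicate 3, 2 were called lower and 0 higher, beside 3088 and 653 of all 12227 tested genes. The gene called lower with all 6 libraries was Prpf6, a scaffold of the U4/U6.U5 particle. Prpf6 was at 73.9, 68.3 and 65.4 TPM and at 13.4, 8.84 and 28.5 TPM (log2 fold change -2.12, SE 0.39, limma adjusted p = 0.0142). Its call was lost without non-acclimated replicate 1 or 2 or cold-acclimated replicate 1 (limma adjusted p = 0.0576, 0.0596 and 0.0606), and without replicate 3 its log2 fold change was -2.60 (limma adjusted p = 0.00373). Lsm8, of the ring bound to U6 RNA, was at 370, 407 and 419 TPM and at 188, 203 and 231 TPM, without overlap (log2 fold change -0.94, limma adjusted p = 0.0213). The median log2 fold change of the 44 genes was -0.04, beside -0.34 for all genes.

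**Figure D5:**
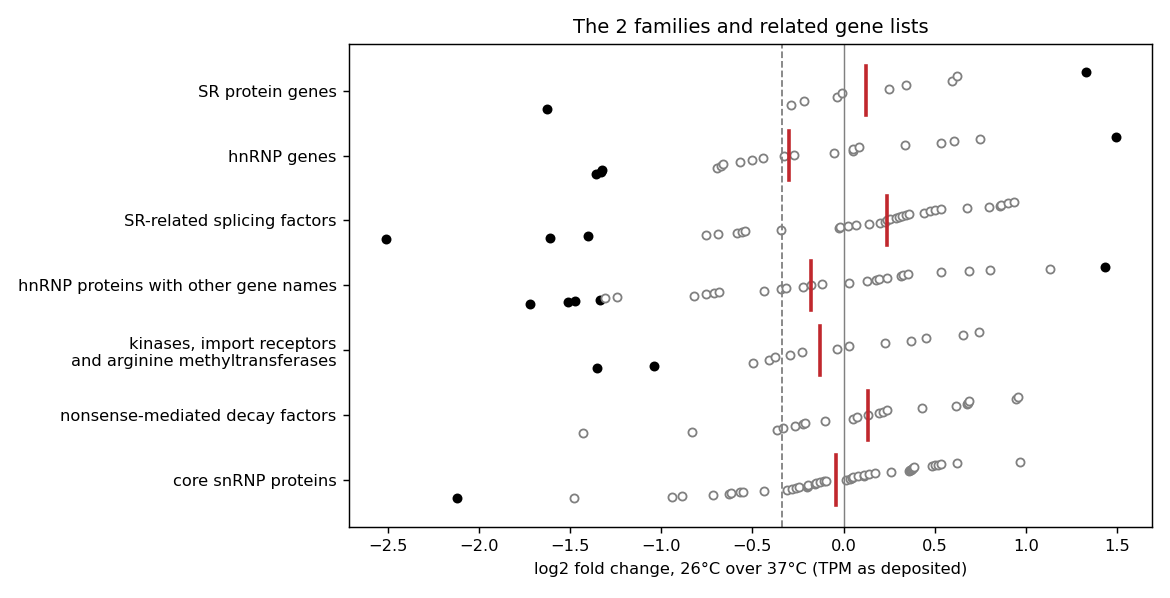
Log2 fold changes of the tested genes of the SR protein, hnRNP and 5 further lists of splicing and decay factors, each point a gene, with the median of each list and of all genes. The medians of all 7 lists lie above that of all genes (-0.34), from the hnRNP genes (-0.30) to the SR-related factors (0.24). The lists were not matched to all genes for level.

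Other listed genes overlap 14 of the 33 members, 2 of them on the same strand (Gm42127 with Hnrnpd and Mir7-1 with Hnrnpk). A gene on the opposite strand that averaged 1 TPM or more overlaps 12 members. Besides Hnrnpul2, the called members among these are Hnrnpdl (Enoph1, mean 36.4 and 39.6 TPM) and Hnrnpll (4933407O12Rik, mean 7.28 and 6.12 TPM). As the strand setting is not stated, the part of such genes in the values of the members was not tested. Gm42127 averaged 3.76 TPM in non-acclimated and 7.14 TPM in cold-acclimated cells. Among members that lie close together, Hnrnpll and Srsf7 are 138 kb apart on chromosome 17 and Hnrnpa0 and Hnrnpk 263 kb apart on chromosome 13. In the pair on chromosome 17, Hnrnpll was called lower and Srsf7 did not pass.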

How the data were processed

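The deposited table held TPM for 6 libraries, 3 per condition, as made by the authors from poly(A)-selected, strand-specific paired-end libraries aligned to GRCm39. The submitters' processing notes name FastQC 0.11.7, Trimmomatic 0.38, HISAT2 2.1.0 and featureCounts 1.6.3. The sources used here do not state the annotation release, the strand setting or how counts became TPM. Whole reads were recovered from the TPM steps: 100% of the 21195 genes above 0 came out whole within 1e-06 reads, 901 of them after multiplication by a common factor.

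Genes averaging 1 TPM or more were fitted on log2(TPM + 1) with limma 3.58.1 in R 4.3.3 with a mean-variance trend, and called where the absolute log2 fold change reached 1 with a Benjamini-Hochberg adjusted p below 0.05. Tables were handled in Python 3.11.15 with pandas 2.3.3. Alternatives were median of ratios scaling, a pseudocount of 0.1, no filter, a replicate block with and without that scaling, limma voom on the recovered reads, each library left out, adjusted p alone and, chosen after seeing the data, replicate 3 left out. The fitting steps were tested on simulated data with independent libraries and as many genes raised as lowered. That test does not bear on the pairing by replicate number or on the choice of scaling.

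Same-numbered libraries deviated together from their condition means (r = 0.48, 0.50 and 0.51, against -0.41 to 0.02 for other pairs). The numbers were therefore taken to pair them in the differences by replicate number and in the replicate block. All other fits, with those that leave out a library, had no block, so their p-values do not use this pairing. With the block, 458 genes were called higher and 2679 lower, in place of 321 and 1954. The members and lists were chosen with earlier results of these data known. Named genes were all members, those called under either scaling in full, the 3 most abundant of each family by library, and 2 genes per list with the smallest p, plus Clk1, Clk4, Srpk1, Srpk2 and Tra2b. Protein sequences were not analysed here. Rsrp1, Fubp3, Nono, Tia1, Dyrk1a, Ttc9c, Enoph1 and 4933407O12Rik were named after their values were seen.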

Additional observations from a re-analysis of the deposited data

How the results depend on the processing

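The counts of called members rested on scaling and on single libraries, and a pseudocount of 0.1 changed no call of a member. SR protein genes called higher numbered 1 as reported, 2 with median of ratios scaling or limma voom, 3 with the replicate block and that scaling (which adds Srsf2), and 0 without the filter. hnRNP genes called higher numbered 1, then 2, 2 and 3 (the last adds Hnrnpab), and hnRNP genes called lower 3, then 0, 0 and 0, with 1 without the filter. The replicate block alone changed no call of a member. It raised the list of hnRNP and other RNA-binding proteins from 5 to 8, the snRNP list from 1 to 2 and decay factors from 0 to 1. With median of ratios scaling, limma voom, and the block with scaling, SR-related factors came to 8, 8 and 8 and decay factors to 6, 6 and 7. The snRNP list came to 2, 2 and 4. With scaling or limma voom the kinase list came to 1 called higher (1 lower without the filter). With the block and scaling the kinase list held 2 called higher and 0 lower, in place of 0 higher and 2 lower as reported. Adjusted p alone gave 5 SR-related factors, 3 genes of the snRNP list and 1 decay factor, beside 404 higher and 2123 lower of all tested genes. Without replicate 3 (both libraries), the list of hnRNP and other RNA-binding proteins held 8 called genes, the snRNP list 2 and the decay factors 4. In that fit 653 of all 12227 tested genes were called higher and 3088 lower. Leaving out single libraries gave SR protein genes 0 to 1 in each direction and hnRNP genes 0 to 1 higher and 0 to 4 lower. SR-related factors came to 2 to 5 and the list of hnRNP and other RNA-binding proteins to 0 to 8. The kinase list came to 0 to 3, decay factors to 0 to 2 and the snRNP list to 0 to 3. Removing non-acclimated replicate 2 left 0 members called. These fits have fewer libraries, and the calls over all genes moved as well. Of all 12227 tested genes, 321 were called higher and 1954 lower as reported. Leaving out non-acclimated replicate 2 gave 59 and 345, and leaving out cold-acclimated replicate 3 gave 459 and 2725. Median of ratios scaling gave 840 and 1052, and limma voom 792 and 1092. The block gave 458 and 2679, and 1129 and 1515 with scaling. Without the filter 184 and 1121 of 21195 genes were called.

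Log2 fold changes that turned sign were those of genes that did not pass the test. With median of ratios scaling, with the block and scaling, and with limma voom, they were 0.36, 0.36 and 0.36 for Hnrnpl, 0.14, 0.14 and 0.14 for Hnrnpu, 0.068, 0.068 and 0.072 for Hnrnpr, 0.41, 0.41 and 0.41 for Srsf7, 0.20, 0.20 and 0.19 for Srsf9, 0.37, 0.37 and 0.38 for Srsf10 and 0.12, 0.12 and 0.12 for Srsf4. Clk1 came to 0.000664 with limma voom. Over fits without a single library, Hnrnpm ranged from -0.32 to 0.37, Hnrnph2 from -0.23 to 0.29, Hnrnpc from -0.13 to 0.23, Srsf7 from -0.16 to 0.10, Srsf9 from -0.43 to 0.0066, Srsf10 from -0.20 to 0.11 and Tra2b from -0.12 to 0.51. Without replicate 3, Hnrnph2 was at -0.03, Srsf7 at 0.07 and Srsf10 at 0.10. Apart from scaling and from the number of libraries in a fit, the cause of these shifts was not tested.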
